A study of Mus musculus with 3 samples.

Results

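Spi1, Lyz2, Mpeg1, Arg1, Spp1, and F13a1 are genes of macrophage identity and macrophage products, and their levels were compared among 3 pooled RNA-seq libraries of the mouse suprarenal aorta. These 6 genes were found by their symbols, out of 1238 different entries that the 3 lists of differential expression hold. Both lists that hold the aneurysm library (AngII AAA vs. AngII No AAA, AngII AAA vs. Saline) contained all 6, and the remaining list (AngII No AAA vs. Saline) contained 3. The AngII AAA library came from dissecting abdominal aortic aneurysms (AAAs) collected within 24 hours of diagnosis during angiotensin II (AngII) infusion. The AngII No AAA library came from AngII-infused aortas collected at day 10 in which no lesion was found, and the Saline library from saline-infused controls at day 10. All animals were male C57BL/6 mice of the apoE null genotype, aged 12 weeks at surgery, so the controls carried the same mutation and the same tendency to hyperlipidemia. RNA of several animals was pooled in equal amounts within a cohort, and a part of each aortic segment was used. With 1 library per cohort, there was no replicate check, no test between cohorts could be made, and the differences below are descriptions of these libraries. The AngII AAA tissue was also collected at another time after implantation than the other cohorts, and lesion and time cannot be told apart.

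Macrophages are phagocytes that enter an injured vessel wall mainly as blood monocytes and then clear debris, release enzymes, and take part in repair. Spi1 encodes PU.1, the ETS-family transcription factor on which the myeloid lineage depends, and it binds purine-rich sites that contain the letters GAGGAA (the PU-box). Lyz2 encodes lysozyme M, a bactericidal enzyme that neutrophils also make, and Mpeg1 encodes perforin-2, a pore-forming protein of the phagosome. Arg1 encodes arginase 1, which splits arginine into ornithine and urea and is widely used as a sign of alternative activation. Spp1 encodes osteopontin, a secreted ligand of integrins and CD44, and F13a1 encodes the catalytic A subunit of coagulation factor XIII, a transglutaminase that crosslinks fibrin and is carried by macrophages and platelets.

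Because Spi1 is itself among these genes, the promoters of the others were searched for the PU-box. RefSeq promoter windows (GRCm38.p6) were found for 4 of the 6 genes, in 6 windows, and the 250 bases before each start were read on both strands. GAGGAA occurred in 1 window of Spp1 and 1 window of F13a1, and not in a second window of either gene nor in those of Lyz2 and Mpeg1. Of all 32851 promoter windows of this length, 7639 (23.3%) held it, so the letters are common, and a match describes the sequence only. The 2 windows that hold the box are shown with the box in capitals. The Spp1 window is chr5:104434861-104435110 on the plus strand, with the box at bases -113 to -108 from the start. The bases after this start did not match the beginning of a GENCODE transcript of Spp1, whereas those after the start without a box did. For the Mpeg1 window there was no such match either. The F13a1 window is chr13:37050245-37050494 on the minus strand, with the box at bases -66 to -61.
Spp1: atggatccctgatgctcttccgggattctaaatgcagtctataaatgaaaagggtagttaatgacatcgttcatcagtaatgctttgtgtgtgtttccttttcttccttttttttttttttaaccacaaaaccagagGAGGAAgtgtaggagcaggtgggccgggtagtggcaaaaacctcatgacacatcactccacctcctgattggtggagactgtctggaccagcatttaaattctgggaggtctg
F13a1: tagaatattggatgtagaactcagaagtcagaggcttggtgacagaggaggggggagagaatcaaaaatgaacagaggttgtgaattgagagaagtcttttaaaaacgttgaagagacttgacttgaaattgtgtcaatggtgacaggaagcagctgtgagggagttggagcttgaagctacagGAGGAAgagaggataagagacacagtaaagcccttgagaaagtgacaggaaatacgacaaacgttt

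The values are FPKM, reads per kilobase of transcript relative to a scaled read total of the library, so levels can be set side by side among genes. Each list had been scaled separately, and the values of a library that appears in 2 lists stood in a fixed ratio. This ratio was 1.03 for AngII AAA, the same for each of the 385 entries listed in both comparisons and above 0. The values below were rescaled with these ratios to the list of AngII AAA and Saline, which left an ambiguity of 0.05 on the log2 scale. Values for all 3 libraries could be set for 558 entries, including the 6 genes. The loci are given as listed, in the mm9 build that the processing notes name.

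The macrophage genes had their highest level in the AngII AAA library, an intermediate level in the AngII No AAA library, and their lowest in the Saline library. This order held for all 6 genes, although the step from Saline to AngII No AAA was small for Arg1. Of the 558 entries with 3 values, 426 showed the same order. In AngII AAA vs. AngII No AAA, 6 of 6 genes were at least 4-fold higher in the aneurysm library, as were 31.5% of the 600 listed entries. In AngII AAA vs. Saline, 6 of 6 were at least 4-fold higher, as were 63.1% of the 715 listed entries. In AngII No AAA vs. Saline, 0 of the 3 listed genes reached 4-fold, against 11.9% of the 564 listed entries. The median log2 ratio of the listed macrophage genes was 2.80, 4.17, and 1.43 in these comparisons, whereas that of all listed entries was 1.62, 2.27, and 1.17. A gene enters a list only where it differed, so the members' direction in a list is no independent result. The 6 genes were also chosen with earlier results of these data known, so the counts and the size of their ratios are not independent either. Bulk RNA cannot show which cells made the RNA of these genes. It also cannot separate the number of macrophages from the RNA made per macrophage.

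**Figure D1:**
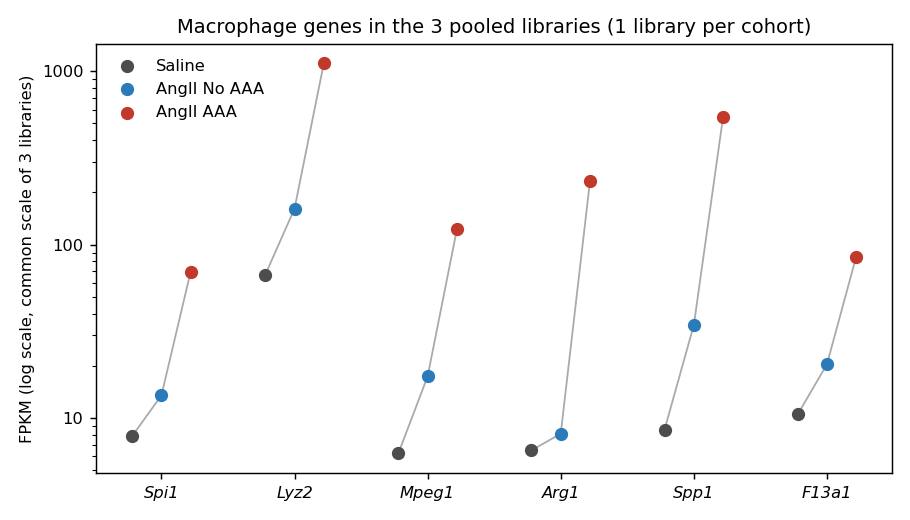
FPKM (log scale) of the 6 genes in the Saline, AngII No AAA, and AngII AAA libraries, 1 point per library, on the common scale. Each gene is highest in AngII AAA, and Arg1 is at 6.51 FPKM in Saline, 8.11 FPKM in AngII No AAA, and 233 FPKM in AngII AAA.

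Spi1 (chr2:90936953-90955913) had the lowest level of the 6 in the aneurysm library. Its FPKM was 7.86 in Saline, 13.5 in AngII No AAA, and 69.9 in AngII AAA. The aneurysm library was thus 5.19-fold above AngII No AAA and 8.89-fold above Saline. AngII No AAA was 1.71-fold above Saline on the common scale, although the gene was not in the list of that pair. Of the 15 genes in a list of macrophage transcription factors, the comparison of AngII AAA with Saline listed 6. All were higher in the aneurysm library, as were 84.6% of all entries of that comparison. The log2 ratios of the 6 ranged from 1.55 to 3.15, and Spi1 had the highest. Runx1, which acts in blood cell formation, was at 30.3 against 4.27 FPKM, and Irf5, which drives inflammatory cytokine genes, was at 26.9 against 3.99 FPKM. The PU.1 relatives Spib and Spic were not listed in any comparison.

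Of 20 genes known as PU.1 targets, 19 were listed for each comparison with the aneurysm library, and all were higher there, as were 84.6% of all entries listed against Saline and 79.0% of those listed against AngII No AAA. Their median log2 ratio was 3.39 against Saline and 2.29 against AngII No AAA. Without a lesion, the comparison with Saline listed 6, all higher in AngII No AAA, with a median of 1.47. Of all entries of that comparison, 63.5% were higher. Tyrobp, a signalling adaptor of myeloid receptors, was at 154 FPKM in AngII AAA and 6.95 FPKM in Saline. Ncf1, a subunit of the phagocyte NADPH oxidase, was at 75.8 and 4.01 FPKM, and Itgam, the integrin chain CD11b, at 74.9 and 3.73 FPKM. Csf3r, the receptor for granulocyte colony-stimulating factor and also one of the neutrophil markers, had the highest ratio, with 109 FPKM in AngII AAA and 3.21 FPKM in Saline.

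Lyz2 (chr10:116714596-116719328) was the most abundant of the 6 in every library. Its FPKM was 66.9 in Saline, 161 in AngII No AAA, and 1109 in AngII AAA. Among the 715 entries of AngII AAA vs. Saline, only 3 had a higher level in the aneurysm library. The aneurysm library was 6.88-fold above AngII No AAA and 16.6-fold above Saline, and AngII No AAA was 2.33-fold above Saline as listed. Lyz2 has a close copy, Lyz1, on the same chromosome. Of the 1256 stretches of 61 bases (the read length) in the Lyz2 transcript of GENCODE M21, 121 (9.63%) also occur in Lyz1, so reads could be divided between the copies. Lyz1 was not listed in any comparison.

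Mpeg1 (chr19:12535268-12539775) had a pattern close to that of Lyz2 at a lower level. Its FPKM was 6.25 in Saline, the lowest of the 6 there, 17.4 in AngII No AAA, and 122 in AngII AAA. The ratios were 7.05-fold for AngII AAA over AngII No AAA, 19.6-fold over Saline, and 2.69-fold for AngII No AAA over Saline as listed. Of its 4265 stretches of 61 bases, none occurs in a transcript of another gene. Lyz2 and Mpeg1 belong to a list of 17 lysosomal and killing effectors, of which each AngII library had 8 listed against Saline. All were higher than in Saline, with median log2 ratios of 3.73 (AngII AAA) and 1.45 (AngII No AAA). Of all entries listed against Saline, 84.6% were higher in AngII AAA and 63.5% in AngII No AAA. Ctss, the lysosomal protease cathepsin S, was at 190 FPKM in AngII AAA and 11.6 FPKM in Saline.

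Arg1 (chr10:24635012-24647276) had the smallest ratio of the 6 genes for AngII No AAA over Saline, and the largest for AngII AAA over AngII No AAA. Its FPKM was 6.51 in Saline, 8.11 in AngII No AAA, and 233 in AngII AAA. The aneurysm library was 28.8-fold above AngII No AAA and 35.9-fold above Saline, whereas AngII No AAA was 1.25-fold above Saline. By level among the 6 genes, Arg1 had place 5 in Saline and place 6 in AngII No AAA, but place 3 in AngII AAA. Of 15 genes of arginine metabolism and alternative activation, 5 were listed between the AngII libraries. All 5 were higher in the aneurysm library, as were 79.0% of all entries of that comparison. Chil3, a chitinase-like protein that neutrophils also make, was at 71.4 against 2.69 FPKM. Il4ra, a chain of the interleukin-4 receptor, was at 69.9 against 15.3 FPKM, and Odc1, which turns ornithine into putrescine, at 16.4 against 4.55 FPKM. Retnla and Mrc1, both associated with alternative activation, were listed between AngII No AAA and Saline, whereas Arg1 was not. Retnla was at 41.7 against 18.4 FPKM and Mrc1, the mannose receptor, at 17.7 against 7.27 FPKM. The other arginase, Arg2, was not listed in any comparison.

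Spp1 (chr5:104864129-104870072) had the highest ratios of the 6 to Saline, in both AngII libraries. Its FPKM was 8.57 in Saline, 34.4 in AngII No AAA, and 548 in AngII AAA. AngII No AAA was 3.89-fold above Saline as listed, just under the 4-fold threshold, and 4.01-fold on the common scale. The aneurysm library was 15.9-fold above AngII No AAA and 63.9-fold above Saline. Of the 1867 stretches of 61 bases in Spp1 transcripts, 190 (10.2%) also occur in the predicted gene Gm42793. Of 9 genes in a list of osteopontin and its receptors, the comparison of AngII AAA with Saline listed 3. All 3 were higher in the aneurysm library, as were 84.6% of all entries of that comparison. Cd44 was at 91.3 against 18.4 FPKM, and Itga4, an integrin chain of leukocytes, at 12.0 against 3.11 FPKM. Itga9, an integrin chain that binds osteopontin, was lower in the aneurysm library than in AngII No AAA, at 15.0 against 37.7 FPKM. Itga5, another integrin chain, was listed between AngII No AAA and Saline alone, at 58.8 against 22.7 FPKM.

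F13a1 (chr13:36959046-37142113) had the lowest ratio of the 6 to either other library. Its FPKM was 10.5 in Saline, 20.4 in AngII No AAA, and 85.4 in AngII AAA. The aneurysm library was 4.18-fold above AngII No AAA and 8.15-fold above Saline, and AngII No AAA was 1.95-fold above Saline on the common scale. It was not in the list of these 2 libraries, on whose own scale it would be 1.89-fold, just under the smallest difference listed there, 1.91-fold. Of a list of 13 genes on transglutaminases, fibrin, and fibrinolysis, 3 were listed between AngII AAA and Saline. All 3 were higher in the aneurysm library, as were 84.6% of all entries of that comparison. Plaur, the urokinase receptor, was at 26.7 FPKM in AngII AAA against 2.50 in Saline. Tgm2, the tissue transglutaminase, was not listed in any comparison.

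The precision of these ratios was approached through the reads behind them. The ratio of FPKM between libraries was read as a ratio of whole numbers times a fixed fraction. The fraction chosen was 2/3 between AngII AAA and Saline and 56/59 between AngII No AAA and Saline. Whole numbers up to 200 fitted within rounding for 533 of 649 and 371 of 520 entries above 0 in both libraries. With so many numbers tried, matches also arise by chance, and their share over all entries was not estimated. Transcript lengths then set the number of reads, on which 189 (29.1%) and 120 (23.1%) of the entries agreed. With the next best fractions, 1/3 and 42/59, 128 and 44 entries agreed on a number. Both comparisons gave the same estimate for the Saline library, but it was read from coarse classes, so this agreement is no check. On this estimate, about 2240000 reads in Saline, 2360000 in AngII No AAA, and 3360000 in AngII AAA stood behind the FPKM scale, whereas the labels give 35000000 to 43000000 reads per library. The reason for this gap is not known, and intervals from more reads would be narrower. The estimated reads for Arg1 were 22 in Saline, 28 in AngII No AAA, and 1184 in AngII AAA. Those for Spi1 were 36, 63, and 480, those for Mpeg1 62, 176, and 1824, and those for F13a1 93, 185, and 1137. For Lyz2 and Spp1, for which no whole numbers were accepted, the length alone gave about 197 and 29 reads in Saline. The smallest whole numbers that fitted were 12, 21, and 160 for Spi1, 11, 14, and 592 for Arg1, and 31, 88, and 912 for Mpeg1. The reads given above are these numbers times 3, 2, and 2. The multiples, and all these estimates, depend on the estimated depth and on the longest coding transcript of each gene.

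Exact 95% intervals (Clopper-Pearson, counting error only) then show which steps exceed the counting error of the estimated reads. They do not cover differences between animals or copies made in amplification. For Arg1, the interval of AngII No AAA over Saline was 0.69 to 2.29-fold, so a difference was not detectable at the estimated depth. That of AngII AAA over AngII No AAA was 19.8 to 43.5-fold. For Spi1, AngII No AAA over Saline was 1.12 to 2.66-fold, and for F13a1, 1.51 to 2.53-fold, both above 1 although neither gene was listed there. The Spi1 interval rests on the multiple of 3 and would be wider with fewer reads. Whether it would then stay above 1 was not computed. For Lyz2, Mpeg1, and Spp1, the intervals of this step were 1.97 to 2.77-fold, 2.01 to 3.66-fold, and 2.58 to 6.06-fold. The intervals of AngII AAA over AngII No AAA were 3.58 to 4.91-fold for F13a1 and 3.98 to 6.85-fold for Spi1, and those of Spp1, 13.2 to 19.3-fold, and of Arg1 lay above those of the other 4 genes.

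**Figure D2:**
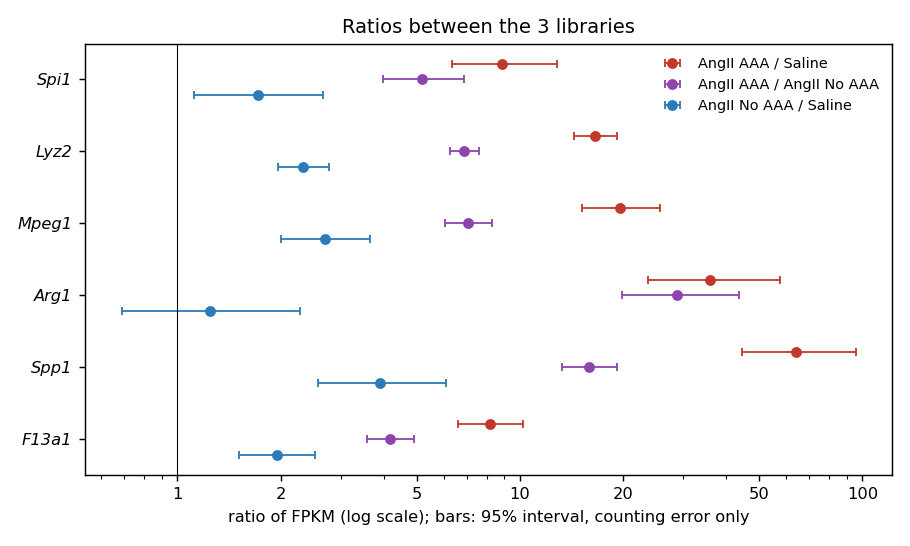
Ratio of FPKM between libraries (log scale) for each gene, with exact 95% intervals that cover counting error only. At the estimated reads, the Arg1 ratio of AngII No AAA to Saline is the only one whose interval includes 1 (0.69 to 2.29).

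The part of the rise already present without a lesion was expressed as the log2 ratio of AngII No AAA over Saline in percent of that of AngII AAA over Saline. It was 6.16% for Arg1, 24.7% for Spi1, 31.3% for Lyz2, 31.8% for F13a1, 33.4% for Spp1, and 34.4% for Mpeg1. Thus 5 of the 6 genes lay between 24.7% and 34.4%, and the value for Arg1 was below them. No interval was computed for these shares. The counting intervals of AngII No AAA over Saline overlapped for Arg1 (0.69 to 2.29-fold), Spi1 (1.12 to 2.66-fold), and F13a1 (1.51 to 2.53-fold). On this step, Arg1 was therefore not separated from Spi1 or F13a1. With the other constant between lists, the value for Arg1 was 5.28%. The median over 57 genes of the macrophage lists with 3 values was 35.6%, and that over all 470 entries higher in AngII AAA than in Saline was 36.0%. This share depends on the listing: its median was 59.4% over the 206 of these entries that were also listed between AngII No AAA and Saline, as Lyz2, Mpeg1, and Spp1 were, and 24.7% over the 264 that were not, as for Arg1, Spi1, and F13a1. Only Cebpb (2.77%) and Msr1 (3.92%) of the 57 genes were below Arg1. Cebpb encodes a transcription factor of myeloid cells, and Msr1 a scavenger receptor.

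**Figure D3:**
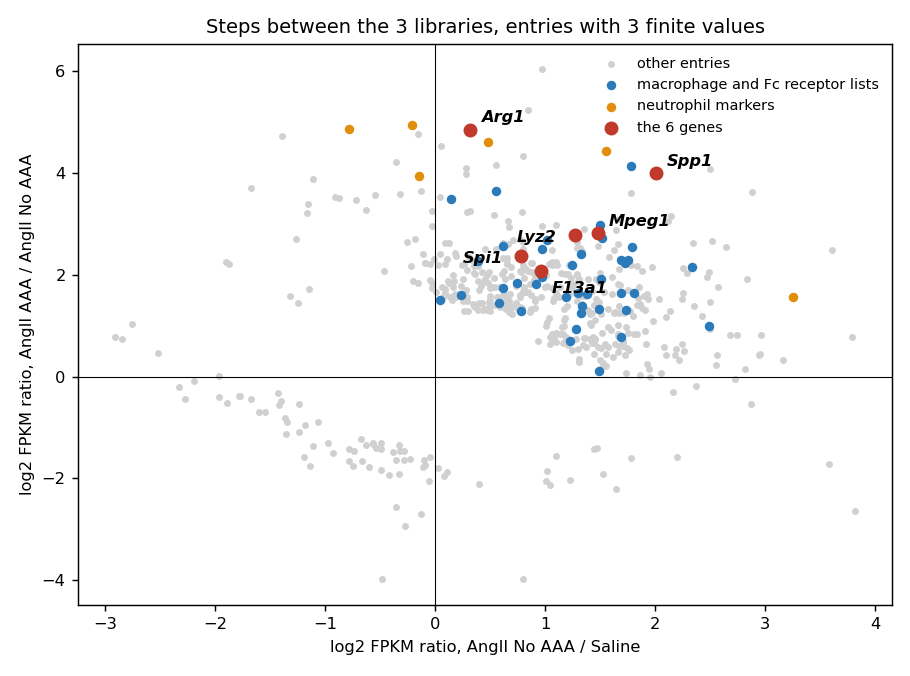
Log2 FPKM ratio of AngII No AAA over Saline (horizontal) and of AngII AAA over AngII No AAA (vertical), 1 point per entry with finite values in 3 libraries. Arg1 lies at 0.32 and 4.85, apart from the other 5 genes and among entries that include neutrophil markers and, unmarked, adrenal cortex genes, while Spi1, Lyz2, Mpeg1, and F13a1 lie among the macrophage and Fc receptor genes.

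The genes nearest to each member were sought among 539 other entries by the distance over the log2 ratios of AngII AAA and AngII No AAA to Saline, which rests on 3 libraries only. Arg1 was nearest to Csf3r (0.19), the steroid transport gene Star (0.48), and Slfn4 (0.51). Spp1 was nearest to Clec4d (0.25), a lectin receptor of myeloid cells, the neutrophil collagenase Mmp8 (0.45), and the chemokine Cxcl2 (0.65). Mpeg1 was nearest to Ncf1 (0.07), AF251705 (0.14), and Tyrobp (0.18). Lyz2 was nearest to the chemokine Cxcl1 (0.11), with AF251705 (0.21) also close. F13a1 was nearest to Laptm5 (0.01), a lysosomal membrane protein of blood cells, the histone gene Hist1h1d (0.05), and Emilin2 (0.06). Spi1 was nearest to Tarm1 (0.01), Nuf2 (0.04), a kinetochore gene, and C5ar1 (0.11), the receptor for complement C5a.

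The 18 macrophage surface markers with values in all 3 libraries were also highest in the aneurysm library. Of 24 markers, the aneurysm library had 18 listed against Saline (median log2 ratio 3.46) and 15 against AngII No AAA (2.23), all higher. AngII No AAA had 10 listed against Saline (1.68), again all higher. Among these 10, Folr2 was listed in that comparison alone, at 30.7 against 14.2 FPKM. Trem2, a lipid-sensing receptor, was at 62.7 FPKM in AngII AAA against 2.80 in Saline, and Clec4d at 78.3 against 1.31 FPKM. In AngII No AAA vs. Saline, Ms4a7, a marker of mature macrophages, had the highest ratio, at 8.50 against 1.51 FPKM. All 13 genes of a list of Fc receptor signalling were listed between the AngII libraries and were higher in the aneurysm library, among them the shared gamma chain Fcer1g at 265 against 41.5 FPKM. Over all 8 macrophage lists, which share some genes and hold 113 in all, 54 of 55 listed genes were higher in AngII AAA than in AngII No AAA, 59 of 59 were higher in AngII AAA than in Saline, and 29 of 29 were higher in AngII No AAA than in Saline. Of all listed entries, 79.0%, 84.6%, and 63.5% were higher in these comparisons.

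**Figure D4:**
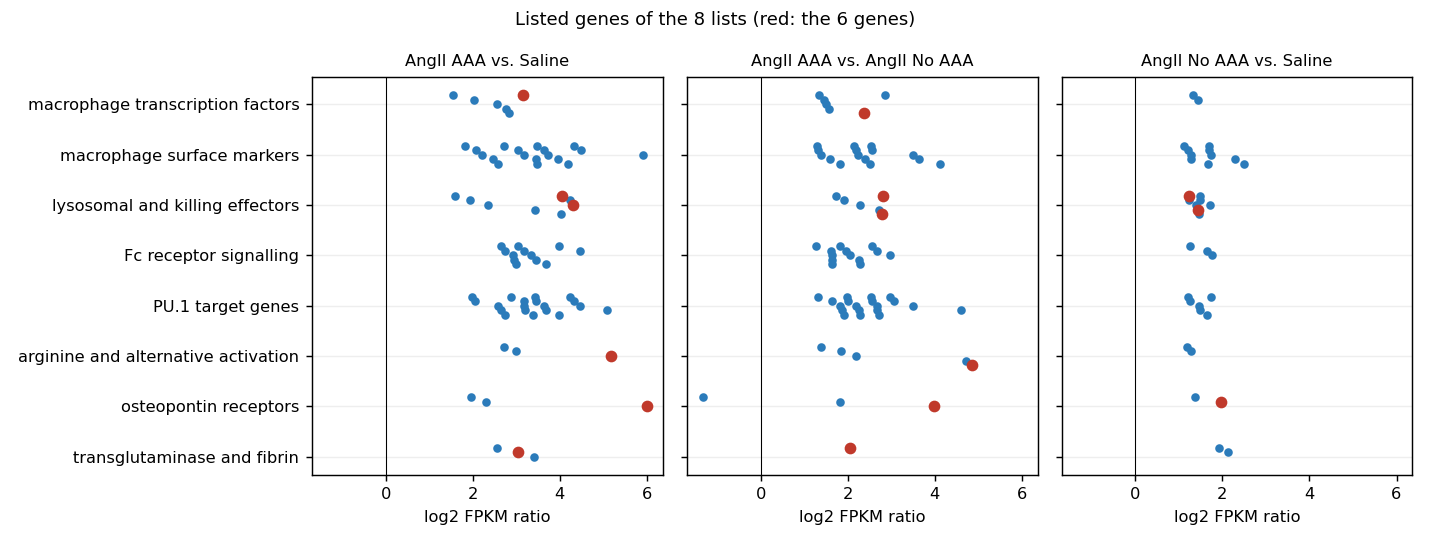
Log2 FPKM ratio of the listed genes of 8 lists in the 3 comparisons, 1 point per gene, with the 6 genes in red. Itga9, at -1.33 in AngII AAA vs. AngII No AAA, is the only gene below 0.

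Set against these surface markers, the 6 genes separated. The summed level of the 18 surface markers with 3 values was 89.7 FPKM in Saline, 233 FPKM in AngII No AAA, and 981 FPKM in AngII AAA. All 18 were listed against Saline as higher in the aneurysm library, and markers without such a difference are not in the sum. The percentages below depend on this selection. Arg1 amounted to 7.25% of this sum in Saline, 3.48% in AngII No AAA, and 23.8% in AngII AAA. Spp1 amounted to 9.56%, 14.8%, and 55.9%, and was 1.55-fold higher in AngII No AAA than in Saline. Lyz2 amounted to 74.6%, 69.2%, and 113%, and Mpeg1 to 6.96%, 7.46%, and 12.5%, 1.07-fold higher in AngII No AAA than in Saline. Spi1 (8.77%, 5.79%, and 7.13%) and F13a1 (11.7%, 8.77%, and 8.71%) were highest in Saline. The outcome depended on the marker. Relative to Cd68 alone, the AngII AAA value over the Saline value was 2.32-fold for Arg1, 4.13-fold for Spp1, and 0.57-fold for Spi1. Relative to Csf1r it was 6.02-fold, 10.7-fold, and 1.49-fold, and relative to Adgre1 4.34-fold, 7.73-fold, and 1.08-fold. For F13a1 it was 0.53-fold relative to Cd68, 1.37-fold relative to Csf1r, and 0.99-fold relative to Adgre1.

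**Figure D5:**
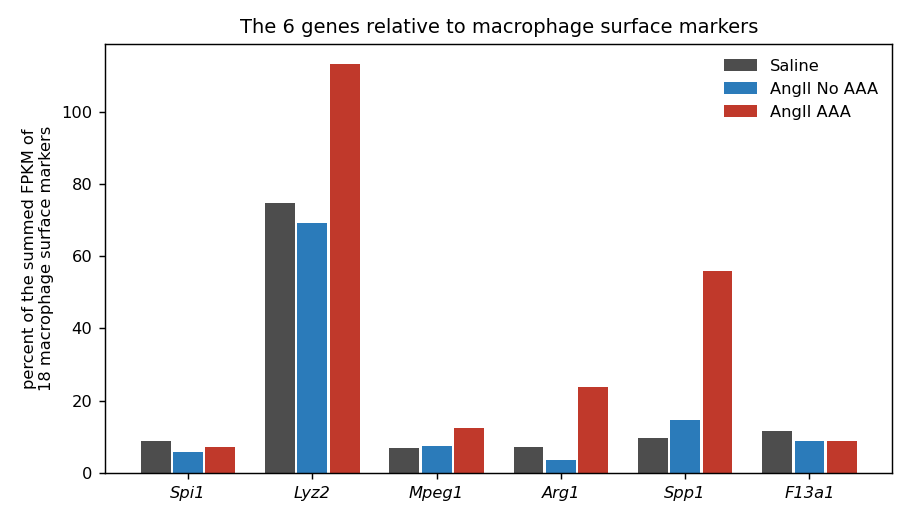
FPKM of each gene in percent of the summed FPKM of 18 macrophage surface markers, 1 bar per library. Arg1 and Spp1 have their highest bars in AngII AAA (23.8% and 55.9%), whereas F13a1 differs little between the AngII libraries (8.77% and 8.71%).

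Markers of other cells moved with the same libraries, and their part in the values above was not tested. For scale, 84.6% of all entries listed against Saline and 79.0% of those listed against AngII No AAA were higher in AngII AAA. Of 17 neutrophil markers, 8 were listed between AngII AAA and Saline, all higher in the aneurysm library. The sum of the 7 with 3 values was 55.6 FPKM in Saline, 102 FPKM in AngII No AAA, and 1292 FPKM in AngII AAA. Of these 7, Stfa2l1 was listed at 0 in Saline and AngII No AAA, and Lcn2, an iron-binding protein of neutrophil granules, made up 63.2 FPKM of the AngII No AAA sum. The share of the rise present in AngII No AAA could be set for 6 neutrophil markers and ranged from -19.3% to 67.4%, with a median of 2.77%. Of 6 platelet markers, which bear on F13a1, 4 had 3 values, with sums of 77.3, 74.3, and 1252 FPKM, and they did not move together: from Saline to AngII No AAA, Pf4 went from 49.0 to 59.7 FPKM and Ppbp from 14.6 to 5.55 FPKM. Of 8 markers of the adrenal cortex, an organ beside this segment, 7 were listed for each comparison with AngII AAA, all higher there, and the sum of the 6 with 3 values was 12.9, 15.1, and 455 FPKM. Their share of the rise present in AngII No AAA ranged from -33.5% to 15.6%, with a median of 7.51%. Smooth muscle markers moved the other way, with 6 of 8 lower in AngII AAA than in AngII No AAA, among them Acta2 at 304 against 926 FPKM. Of the B cell markers, Cd79a and Cd79b were listed for each comparison with AngII AAA, both higher there. No marker of T cells, dendritic cells, mast cells, endothelial cells, or adipocytes was listed. Skeletal muscle markers were lower than in Saline, 6 of 6 in AngII No AAA and 3 of 6 in AngII AAA. In contrast, 1 erythroid marker, Alas2, and, in at least 1 AngII library, 3 fibroblast markers were higher. Entries that join several genes were not matched to these marker lists. Those joining Hba-a1 and Hba-a2 were at 7.76 and 15.5 FPKM in Saline, 54.5 and 119 FPKM in AngII No AAA, and 60.0 and 160 FPKM in AngII AAA. Hbb-b2, a haemoglobin gene outside the list, was at 118, 778, and 754 FPKM.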

How the data were processed

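Pooled suprarenal RNA was sequenced in 3 libraries, 1 per cohort. Per the labels and the study's methods, reads were processed on Galaxy with FastQC, HISAT2, Cufflinks, and Cuffdiff; versions are not given in the sources used here, and the build named is mm9. The authors deposited FPKM values, scaled separately in each comparison, for entries with an unadjusted p-value under 0.05 (0 entries were at or above it). The deposited fold changes, test scores, p-values, q-values, and significance calls were not used otherwise. Multi-mapped and paralogous reads may be divided among copies.

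Log2 ratios were computed without a pseudocount or filter. A constant per list, the median ratio of a shared library, brought the 3 libraries to 1 scale, that of the list for AngII AAA and Saline. No test was run, since each cohort had 1 library. Read numbers were estimated from whole-number ratios (a step chosen after seeing the data), and intervals are exact Clopper-Pearson, covering counting error only. Multi-gene entries were kept, but they were not matched to the gene lists. The 6 genes were named in every list, with up to 4 genes per macrophage list with the largest absolute log2 ratio among those reaching 1 FPKM in either library, the paralogs listed, and the 3 nearest genes per member, except a few that are not reported here. The genes and lists were chosen with earlier results of these data known. Alternatives were folds of 2 and 8, a pseudocount of 1, a minimum of 1 FPKM, single-gene entries, centring on the median, and other constants. The calculations were tested on simulated data. Python 3.11.15, numpy 2.4.6, pandas 2.3.3, and matplotlib 3.10.9 were used.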

Additional observations from a re-analysis of the deposited data

How the results depend on the processing

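With a fold of at least 8, 2 of the 6 genes (Arg1 and Spp1) passed in AngII AAA vs. AngII No AAA, where 9% of entries did, and all 6 passed in AngII AAA vs. Saline, where 25.9% did. With a fold of at least 2, all 3 listed genes passed in AngII No AAA vs. Saline, where 61% did. With the AngII No AAA value taken only from the comparison with Saline, the order could be set for 3 genes, since 3 are listed there. Of 62 alternatives, 44 left the value within 1.5 times and 18 moved it, and none reversed a direction. Of the 18, 15 were log2 ratios centred on the median of all listed entries, which were then 0.45 to 3.23 between the AngII libraries, 0.76 to 3.73 for AngII AAA over Saline, and 0.05 to 0.79 for AngII No AAA over Saline. Lyz2, at 0.05, was thus near the median entry of that list. No paired analysis was possible because each cohort had 1 library, and for the same reason no library could be left out.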
